A study of Mus musculus with 8 samples.

Results

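WFS1 peaks that were called after 30 sonication cycles and had no counterpart after 36 cycles are described here. They were chosen by measured values, as the peaks of the 30-cycle list on nuclear chromosomes whose edges lay more than 1 kb from every peak of the 36-cycle list. By this rule 8835 of the 18278 nuclear peaks of the 30-cycle list, or 48.3% (47.6 to 49.1), were isolated. The same rule applied the other way left 2950 of 12673 nuclear peaks of the 36-cycle list, or 23.3% (22.6 to 24). Intervals throughout are 95% intervals that cover counting error over peaks only. Of the other 30-cycle peaks, 8137 had at least 1 bp in common with a 36-cycle peak and are called shared peaks below, and 1306 lay within 1 kb of one without touching it.

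Both libraries came from wildtype C2C12 cells, a mouse myoblast line, kept in proliferation and crosslinked with DSG and formaldehyde. Chromatin was sheared for 30 cycles, immunoprecipitated with an antibody against WFS1, and one part of the precipitate was sonicated for 6 further cycles, to 36. The study used this scheme to reach open chromatin after 30 cycles and compact chromatin after 36. Of the 8 libraries of the experiment 2 were used here, with 1 library per condition and 1 cell line, and the 6 inputs and libraries of WFS1 knockout cells that express WFS1-FlagTag were not used here. A peak is therefore not a replicate of a condition, no test between the conditions could be made, and all differences describe this pair of libraries. The peak lists hold positions without a score or read count, so the depth is unknown. Whether regions missing from the 36-cycle list were just under its threshold was not tested.

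WFS1, or wolframin, is a transmembrane protein of the endoplasmic reticulum that is known for its role in calcium balance and as the gene mutated in Wolfram syndrome. The endoplasmic reticulum is continuous with the nuclear envelope, and proteins of the inner nuclear membrane can hold chromatin at the nuclear edge. In myoblasts, enhancers of muscle genes are typically occupied by the bHLH factor MyoD at E-boxes together with AP-1, Runx and Tead factors.

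To show what these peaks look like as sequence, 7 of them were printed on the forward strand of GRCm38, each as at most 300 bases of the peak that hold the most sites searched. The first pair lies at myogenic regulator genes, namely upstream of Myod1 and at Myf5. Capitals mark the MyoD-type E-box CAGCTG, the AP-1 site TGACTCA, which reads TGAGTCA on the other strand, and the RUNX site TGTGGT, which reads ACCACA on the other strand.
Upstream of Myod1, chr7:46353058-46353357: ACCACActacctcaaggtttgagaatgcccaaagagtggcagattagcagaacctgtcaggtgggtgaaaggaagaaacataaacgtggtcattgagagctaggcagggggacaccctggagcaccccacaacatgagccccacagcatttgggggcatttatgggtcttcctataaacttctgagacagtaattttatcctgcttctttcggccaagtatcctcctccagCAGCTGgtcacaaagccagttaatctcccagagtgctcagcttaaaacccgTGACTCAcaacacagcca
Upstream of Myf5, chr10:107486758-107487057: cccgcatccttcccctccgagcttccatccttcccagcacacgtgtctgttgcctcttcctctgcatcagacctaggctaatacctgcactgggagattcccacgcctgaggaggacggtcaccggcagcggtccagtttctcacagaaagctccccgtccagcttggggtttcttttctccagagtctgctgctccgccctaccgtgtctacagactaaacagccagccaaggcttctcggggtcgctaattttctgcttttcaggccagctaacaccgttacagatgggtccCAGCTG
The next 3 are the isolated peaks with the most AP-1 sites, with those sites in capitals. The printed stretches hold 3 of 5, 4 of 5 and 3 of 4 of their AP-1 sites.
Nearest to Rorb, chr19:19247089-19247388: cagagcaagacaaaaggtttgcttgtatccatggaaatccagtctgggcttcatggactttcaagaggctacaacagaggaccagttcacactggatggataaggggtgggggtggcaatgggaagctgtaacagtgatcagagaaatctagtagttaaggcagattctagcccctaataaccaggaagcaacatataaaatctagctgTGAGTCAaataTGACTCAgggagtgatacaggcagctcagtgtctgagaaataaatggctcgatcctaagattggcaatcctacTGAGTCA
Nearest to Itgax, chr7:128119301-128119600: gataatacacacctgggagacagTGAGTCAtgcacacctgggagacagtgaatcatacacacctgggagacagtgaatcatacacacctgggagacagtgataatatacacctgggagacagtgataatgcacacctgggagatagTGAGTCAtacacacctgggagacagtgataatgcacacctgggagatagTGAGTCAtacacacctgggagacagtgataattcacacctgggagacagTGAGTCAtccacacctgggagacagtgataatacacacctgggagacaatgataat
Nearest to Nanos3, chr8:84191902-84192201: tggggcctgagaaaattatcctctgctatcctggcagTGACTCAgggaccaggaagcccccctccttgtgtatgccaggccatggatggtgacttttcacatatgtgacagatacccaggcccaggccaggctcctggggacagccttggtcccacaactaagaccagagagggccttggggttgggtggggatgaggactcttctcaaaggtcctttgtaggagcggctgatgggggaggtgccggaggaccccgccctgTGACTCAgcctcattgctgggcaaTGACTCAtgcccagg
The last pair are the peaks centred closest to the start site of a gene of the lists described below, shown up to that start site. Capitals mark the GC box GGGCGG, which reads CCGCCC on the other strand, and the CCAAT box GCCAAT, which reads ATTGGC on the other strand.
Upstream of Arpc1b, chr5:145113960-145114214: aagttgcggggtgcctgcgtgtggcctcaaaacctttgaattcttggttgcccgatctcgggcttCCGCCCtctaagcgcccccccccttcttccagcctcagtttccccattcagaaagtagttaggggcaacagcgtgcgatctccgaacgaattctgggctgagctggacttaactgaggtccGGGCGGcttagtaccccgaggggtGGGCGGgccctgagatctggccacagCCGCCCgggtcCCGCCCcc
Upstream of Cdk1, chr10:69352939-69353182: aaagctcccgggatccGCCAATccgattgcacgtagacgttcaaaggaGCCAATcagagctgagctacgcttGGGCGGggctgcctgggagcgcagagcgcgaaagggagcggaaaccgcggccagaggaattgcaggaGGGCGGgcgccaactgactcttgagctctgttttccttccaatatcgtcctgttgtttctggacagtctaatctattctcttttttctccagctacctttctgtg

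The distance from isolated peaks to the nearest 36-cycle peak varied widely. The rule itself set its lower limit, and no background of genome points is given for the distances in this paragraph. They therefore do not show whether isolated peaks lay farther from other peaks than the genome at large. Of the 8835 peaks, 86.2% had none within 5 kb, 63.5% none within 20 kb and 27.1% (26.2 to 28.1) none within 100 kb. At the limit itself, the isolated peaks nearest to a 36-cycle peak were 1001 bp away on chromosomes 13 and 8 and 1007 bp away on chromosome 5, with widths of 661, 249 and 285 bp. The peaks that just missed the rule had gaps of 1000, 999 and 997 bp on chromosomes 10, 4 and 14, with widths of 508, 415 and 547 bp. Isolated peaks were often near each other, since 23% (22.1 to 23.9) had another isolated peak within 10 kb and 53.9% (52.8 to 54.9) within 50 kb.

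The isolated peaks were narrower than shared peaks, but not than the other classes. Their median width was 323 bp (320 to 326), with quartiles of 267 and 420 bp and a range from 242 to 1642 bp, against a median of 517 bp (512 to 524) in shared peaks. The median was 330 bp (323 to 338) in 30-cycle peaks within 1 kb of a 36-cycle peak without overlap. In isolated 36-cycle peaks it was 254 bp (251 to 259). When all nuclear 30-cycle peaks were divided by width into 10 groups of similar size, isolated peaks made up 76.6% of the narrowest group, at 242 to 250 bp, 57.5% at 343 to 387 bp, 32.8% at 511 to 615 bp and 7.12% of the widest group, at 809 to 3800 bp. Width moved with isolation, and the main comparisons with shared peaks below are also given for shared peaks weighted to the widths of the isolated ones. The GC content of the central 200 bp differed little, with medians of 48% (47.5 to 48) in isolated and 47.5% (47.5 to 48) in shared peaks.

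Along the genome the isolated peaks had a mean density of 3.24 per Mb. Chromosome 15 had the highest density of the 19 autosomes, 5.11 per Mb, and chromosome 14 the lowest, 2.8 per Mb, a 1.82-fold range. Chromosome 11 followed with 4.97 per Mb and chromosome 19 with 4.62 per Mb. The share of 30-cycle peaks that were isolated ran from 41.8% (39.1 to 44.5) on chromosome 15 to 56.1% (52.5 to 59.6) on chromosome 9, so the chromosome with the most isolated peaks per Mb had the smallest isolated share. Chromosome X carried few peaks of any kind. Its density of isolated peaks, from 131 peaks, was 0.217 (0.182 to 0.258) times that of the autosomes, and that of shared peaks, from 53 peaks, 0.0944 (0.0721 to 0.124) times. Of the 30-cycle peaks on X, 66.8% (60 to 73) were isolated, above every autosome. Among isolated peaks at least as wide as the median 30-cycle peak the X ratio was 0.147. No isolated peak was on chromosome Y, where the 30-cycle list had 2 peaks. The copy number of each chromosome in this line was not measured here, and its part in these densities was not tested.

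**Figure D1:**
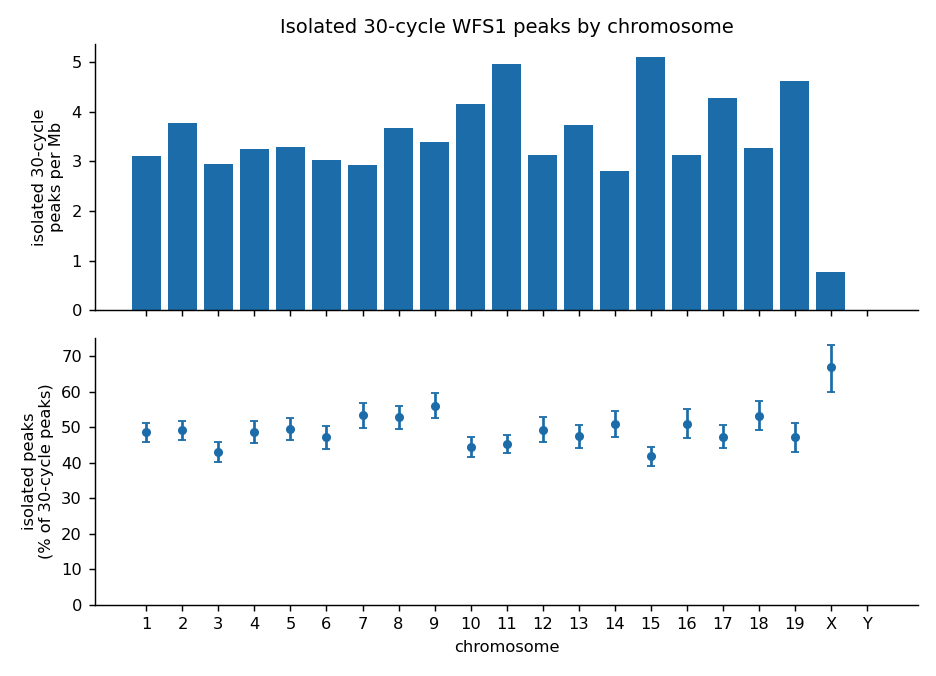
Isolated 30-cycle peaks per Mb of each chromosome (top, bars) and as a percentage of all 30-cycle peaks on that chromosome (bottom, points with 95% Wilson intervals, Y with 2 peaks left out). Density was highest on chromosome 15 at 5.11 per Mb, and the isolated share was highest on chromosome X at 66.8%.

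Relative to genes, isolated peaks were found mainly in introns and between genes, with a smaller share at promoters. By the peak centre, 1688 of 8835, or 19.1% (18.3 to 19.9), lay within 1 kb of a gene's start site, 41.5% (40.5 to 42.5) in introns and 35.5% (34.5 to 36.5) between genes. Coding exons held 1.02%, untranslated regions 1.36% and other exons 1.49%. Of points placed every 10 kb along the genome, 3.84% lay within 1 kb of a start site and 52.5% between genes. Shared peaks had a smaller start-site share, 12.2% (11.5 to 12.9), and the difference was 6.89 percentage points (5.8 to 7.97), or 5.02 points at equal widths. Between genes lay 39.7% of shared peaks, which was 4.2 points above the isolated peaks (interval of isolated minus shared from -5.66 to -2.75). In the narrowest width group, 242 to 250 bp, the order was the opposite, with 19.6% of isolated and 20.5% of shared peaks at start sites. The 1306 30-cycle peaks within 1 kb of a 36-cycle peak without overlap had a start-site share above that of isolated peaks, 23.2% (21 to 25.6). Of these, 30.3% (27.9 to 32.9) lay between genes. A high start-site share was thus not particular to isolated peaks. The intervals of isolated 36-cycle peaks overlapped those of isolated 30-cycle peaks in both shares, with 18.5% (17.2 to 20) at start sites and 34.9% (33.2 to 36.6) between genes.

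**Figure D2:**
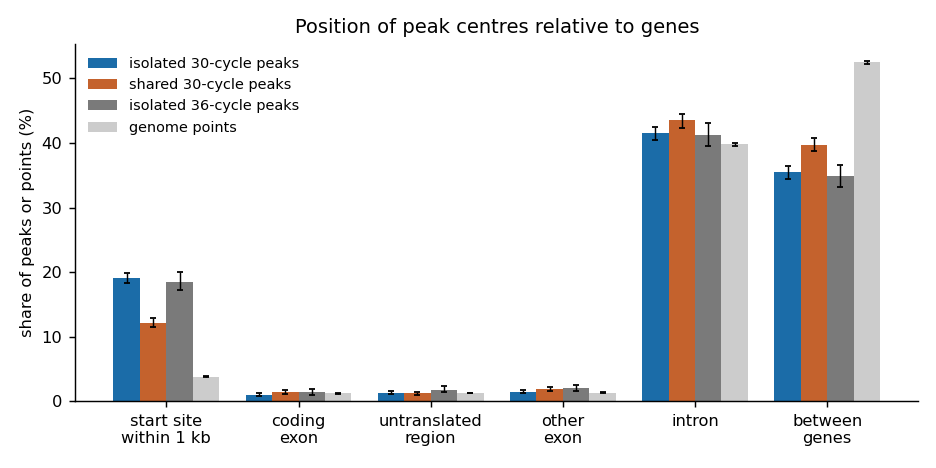
Share of peak centres, in percent, by position relative to genes, for isolated 30-cycle peaks, shared 30-cycle peaks, isolated 36-cycle peaks and points every 10 kb of the genome (bars with 95% Wilson intervals). At start sites isolated 30-cycle peaks reached 19.1% and shared peaks 12.2%, and genome points 3.84%.

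The start-site peaks differed from shared ones in kind as well as in number. The nearest start site was that of a protein-coding gene in 75.7% (73.6 to 77.7) of the 1688 isolated peaks at start sites and in 56.9% (53.8 to 60) of the 994 shared peaks there. Noncoding genes took the opposite order. Long intergenic noncoding RNA genes were nearest in 6.4% (5.33 to 7.67) of isolated against 12.4% (10.5 to 14.6) of shared peaks, and snRNA genes, which encode the RNA parts of the spliceosome, in 0.652% (0.364 to 1.16) against 4.23% (3.14 to 5.66). Protein-coding genes that start on both strands within 1 kb, as at divergent promoters, were found at 8.53% (7.29 to 9.96) of isolated and 3.42% (2.46 to 4.74) of shared start-site peaks. CpG-rich promoters, here a GC content above 50% and a ratio of observed to expected CpG above 0.6 over 500 bp, made up 54.7% (52.3 to 57) of the isolated start-site peaks against 38.5% (35.6 to 41.6) of the shared ones. Isolated 36-cycle peaks at start sites resembled the isolated 30-cycle ones, with a protein-coding gene nearest in 70.7% (66.8 to 74.4), a long intergenic noncoding RNA gene in 5.67%, an snRNA gene in 0.731%, coding genes on both strands in 8.41% and CpG-rich promoters in 49.7% (45.6 to 53.9). Away from start sites only 2.57% of isolated peaks were CpG-rich. The isolated start-site peaks were centred a median of 91 bp (59 to 115) downstream of the start site, and 38.3% of them lay within 250 bp of it.

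The share at start sites varied with the distance to the nearest 36-cycle peak. Over all 30-cycle peaks it did not rise steadily, since peaks within 1 kb without overlap, which the rule leaves out, had 23.2%. The shares below are those of isolated peaks. The start-site share was 13.6% (12.2 to 15.1) among the 2063 isolated peaks at 1 to 10 kb and 18.6% (17.3 to 20.1) among 2996 at 10 to 50 kb. It was 23.1% (21.5 to 24.8) among 2568 at 50 to 200 kb and 21.3% (19.1 to 23.7) among 1208 farther away. The share made mostly of repeats went from 10.5% (9.27 to 11.9) to 19.7% (17.6 to 22) over the same bands. AP-1 sites had shares between 16.9% and 18% in the 4 bands. The MyoD-type E-box was at 17.9%, 17.7% and 18% in the nearer bands and at 13.2% (11.4 to 15.3) in the farthest, where the median GC content was also lower, 45.5% against 48% to 48.5%. Median widths fell from 332 to 310 bp across the bands.

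Isolated peaks lay in regions richer in genes than the genome at large. A median of 9 protein-coding start sites (9 to 10) lay within 500 kb of an isolated peak, against 9 (9 to 9) for shared peaks and 5 (5 to 5) for points along the genome. Regions with at least 20 such start sites held 20.2% (19.3 to 21) of isolated peaks and 11.1% of genome points. Regions with none held 3.17% (2.82 to 3.56) of isolated peaks and 11.8% of genome points. The differences between isolated and shared peaks in these shares were 0.974 points (-0.223 to 2.17) and 0.441 points (-0.0703 to 0.95), both with intervals that include 0. At the widths of the isolated peaks, 18% of shared peaks lay in regions with at least 20 start sites, which is below the interval of the isolated peaks, and 3.11% in regions with none. The median remained 9 among isolated peaks away from start sites. The nearest protein-coding start site was a median of 26.5 kb (25.2 to 27.7) away, against 34.9 kb (33.2 to 36.7) for shared peaks, and for 21% (20.1 to 21.8) of isolated peaks it was over 100 kb away.

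Peaks made mostly of repeats were rarer among isolated peaks than among genome windows and commoner than among shared peaks. More than 50% of the bases were annotated as repeats in 13.5% (12.8 to 14.2) of isolated peaks, 7.61% (7.05 to 8.2) of shared peaks and 30.3% of all genome windows of 200 bp. The authors removed reads of low mapping quality before peak calling, whereas the windows were not limited to sequence where reads map well. The part of this filter in the gap to genome windows was not tested. The difference between isolated and shared peaks was 5.88 points (4.97 to 6.8), and shared peaks at the widths of the isolated ones reached 10.6%. By any repeat base the order was the opposite, with 76.6% (75.7 to 77.5) of isolated and 86% (85.3 to 86.8) of the wider shared peaks.

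The genes nearest to isolated peaks were widely spread. By nearest start site, 5397 protein-coding genes, or 24.6% of all, had at least 1 isolated peak, 3493 of them exactly 1, and 167 had at least 5. Of these 5397 genes, 2249 (41.7%) were also the nearest to a shared peak, which is 54.9% of the 4099 genes nearest to shared peaks. The 10 genes with the most isolated peaks had 10 to 15 each. Cdh18, a cadherin gene on chromosome 15, led with 15 peaks at 208 to 1354 kb from its start site, of which 6 were inside the 925 kb gene. Zeb2, a zinc finger repressor of E-cadherin, had 13 at 16.1 to 1374 kb, of which 12 were upstream. Inhba, which encodes the activin beta A subunit, had 12, of which 3 were within 50 kb of its start site. The aggrecan-cleaving protease gene Adamts5 had 11, of which 4 held an AP-1 site, and Cited2, a transcriptional coregulator, had 11, all of them over 100 kb upstream.

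The remaining genes of this group, each with 10 isolated peaks, were Azin1, Klf6, Gadd45g, Flrt2 and Jmjd1c. Azin1, which encodes the antizyme inhibitor and so protects ornithine decarboxylase, differed from the others, since 7 of its 10 peaks were within 50 kb of the start site and the farthest was 84.3 kb away. Shared peaks were nearest to the same genes in numbers from 2 at Azin1 to 23 at Cited2.

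Genes with an isolated peak nearby were counted next, with nearby meaning a peak edge within 50 kb of the start site. Of 21938 protein-coding genes, 8306 had one, a background of 37.9%, and 6033 had a shared peak nearby, a background of 27.5%. Lists of genes by function and families by symbol were then read against these shares. They share genes and neighbourhoods, and counts in them describe these peaks without a test.

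Genes of the contractile cytoskeleton and its regulators were above the background. Among 84 genes of actin filaments and focal adhesion, 57 had an isolated peak nearby, 67.9% (57.3 to 76.9), and 45 a shared one. Isolated peaks covered the start sites of Arpc1b, a subunit of the Arp2/3 complex that nucleates branched actin, of Cald1, the actin-binding caldesmon, of Capza1, which caps filament ends, and of Parvb, an adaptor of focal adhesions. Of 50 genes of the sarcomere, 29 (58%, 44.2 to 70.6) had an isolated peak nearby and 20 a shared one. The closest were 97 bp upstream of Ldb3, a Z-disc protein, 148 bp upstream of Myl4, a myosin light chain, and 157 bp and 511 bp downstream of the start sites of Ttn, the giant spring protein titin, and Mybph, a myosin-binding protein. Integrins (17 of 26) and semaphorins with their plexin and neuropilin receptors (20 of 31) were similarly covered, at 65.4% (46.2 to 80.6) and 64.5% (46.9 to 78.9).

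Of 40 myogenic regulators, 22 had an isolated peak nearby, 55% (39.8 to 69.3), and 24 a shared peak, 60%. The homeobox gene Six4 had an isolated peak on its start site, and Mef2a, Myf5 and Tcf3 had one at 528, 566 and 664 bp upstream. Within 1 kb of the start site, 6 of the 40 genes had an isolated peak and 6 a shared one. Of 24 genes of AP-1 and related bZIP factors, 19 had an isolated peak nearby, 79.2% (59.5 to 90.8), and 16 a shared one. In 4 of these genes, namely Mafa, Jdp2, Bach2 and Junb, the peak was within 1 kb of the start site, and 6 of the 24 had a shared peak that close. Extracellular matrix genes had isolated peaks in 37 of 61 cases (60.7%, 48.1 to 71.9) and shared ones in 42. Among them the start sites of the proteoglycan gene Dcn, of Thbs2 and of the protease inhibitor gene Timp2 lay within an isolated peak. Within 1 kb, 8 matrix genes had an isolated peak and 11 a shared one. For TGF-beta, Wnt and Notch signalling, 31 of 64 genes had an isolated peak nearby, 48.4% (36.6 to 60.4), with the background inside the interval. Within 1 kb, 6 of them had an isolated peak and 7 a shared one.

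Genes for cell division, translation, protein turnover and respiration had isolated peaks nearby more often than shared ones, as all protein-coding genes did at 37.9% and 27.5%. Of 51 cell cycle genes 35 had an isolated peak nearby, 68.6% (55 to 79.7), against 22 with a shared peak. Within 1 kb of the start site the counts were 9 and 3. The peaks at the mitotic kinase gene Cdk1 and at the pocket protein gene Rbl1 lay on the start sites, and those at Aurkb and Rbl2 began 32 and 64 bp downstream. Cytosolic ribosomal protein genes had isolated peaks nearby in 62 of 102 cases (60.8%, 51.1 to 69.7) and shared ones in 43, and within 1 kb in 20 and 6 cases. Rpl23, Rpl30, Rpl32 and Rps24 had one on the start site. For aminoacyl-tRNA synthetases, which charge tRNAs, the counts were 19 and 9 of 34, and for subunits and regulators of the proteasome 22 and 9 of 44. Respiratory chain subunits had 41 and 28 of 84, with 9 against 1 within 1 kb, and mitochondrial ribosomal proteins 36 and 27 of 78. The background of 37.9% was inside the intervals of the proteasome (35.8 to 64.2) and of the mitochondrial ribosomal proteins (35.5 to 57.1). The background itself has this order, with 1536 genes against 719 of all protein-coding genes within 1 kb.

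Of 49 genes of the nuclear envelope and pore, 28 (57.1%, 43.3 to 70) had an isolated peak nearby and 21 a shared one. At Tor1aip1, which encodes the lamina-associated protein LAP1, the peak lay on the start site, and at Lmnb1, the lamin B1 gene, 52 bp upstream. Within 1 kb, 5 of the 49 genes had an isolated peak and 7 a shared one. Chromatin regulators had 39 of 79 (49.4%, 38.6 to 60.2), with Ezh2, Kat2b and Ring1 covered at the start site. Histone genes had 59 of 82 (72%, 61.4 to 80.5), slightly fewer than with shared peaks, 63, and they sit in clusters, with a median of 45.5 protein-coding start sites within 500 kb, so that 1 peak can count for several genes.

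Several families of tissue-restricted genes were below the background. Olfactory receptor genes had an isolated peak nearby in 48 of 1134 cases, 4.23% (3.21 to 5.57), and a shared one in 42. Vomeronasal receptor genes had 17 of 330, 5.15% (3.24 to 8.09). Protocadherins (8 of 68), defensins (9 of 64) and cytochrome P450 enzymes (19 of 100) were at 11.8%, 14.1% and 19%. Potassium channel genes had 23 of 94, 24.5% (16.9 to 34). Neuronal genes were close to the background, with 28 of 80, 35% (25.5 to 45.9), and shared peaks with 17, 21.2%. The Zfp series of zinc finger genes had 144 of 394, 36.5% (31.9 to 41.4), with 38 against 11 within 1 kb of the start site, and solute carriers had 137 of 343, 39.9% (34.9 to 45.2).

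**Figure D3:**
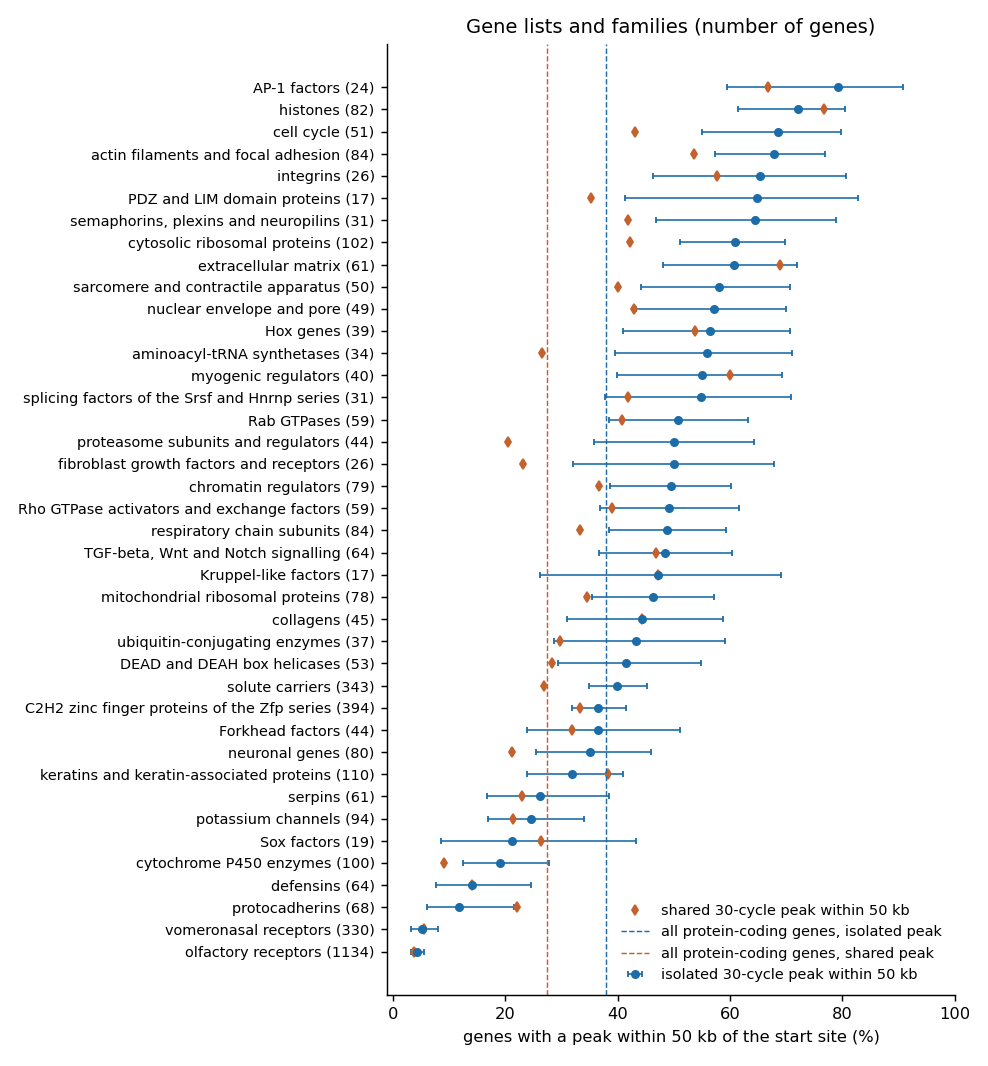
Share of the genes of each list or family, in percent, with an isolated 30-cycle peak within 50 kb of the start site (blue circles with 95% Wilson intervals) or with a shared peak (orange diamonds), beside the shares of all protein-coding genes (dashed lines at 37.9% and 27.5%). AP-1 factors were highest for isolated peaks at 79.2% and olfactory receptors lowest at 4.23%.

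In sequence, the isolated peaks were marked above all by the AP-1 site. TGACTCA was found in the central 200 bp of 1555 of 8835 peaks, 17.6% (16.8 to 18.4), against 3.14% of genome windows of 200 bp weighted to the same GC content, a ratio of 5.61 (5.36 to 5.87). The same letters read backwards, ACTCAGT, had a ratio of 1.4 (1.27 to 1.55). The MyoD-type E-box CAGCTG was in 17.2% of peaks and 10.5% of windows, a ratio of 1.65 (1.57 to 1.72). The RUNX site TGTGGT was in 24.4% and 13.8%, a ratio of 1.76 (1.7 to 1.83), and the TEAD site CATTCC in 14.4% and 11.1%, a ratio of 1.29 (1.23 to 1.36). Each motif was searched on both strands, and overlapping matches of different motifs were each counted.

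Each of these 4 sites was less frequent in isolated than in shared peaks. The differences in share were -3.39 points (-4.58 to -2.2) for the AP-1 site, -3.71 points (-4.9 to -2.53) for the MyoD-type E-box, -4.3 points (-5.63 to -2.97) for the RUNX site and -4.02 points (-5.14 to -2.91) for the TEAD site. At the widths of the isolated peaks, shared peaks held them in 21.6%, 20.9%, 29.3% and 17.2%, so all 4 differences kept their direction at equal widths. Away from start sites, 20.4% of isolated and 22.5% of shared peaks held an AP-1 site, a difference of -2.07 points (-3.41 to -0.723), and the intervals of the differences for the other 3 sites also stayed below 0. Isolated 36-cycle peaks had shares near those of the isolated 30-cycle peaks, with the AP-1 site in 17.7% (16.4 to 19.1), the E-box in 16.5% (15.2 to 17.9), the RUNX site in 22.9% (21.4 to 24.4) and the TEAD site in 14.2% (13 to 15.5). Any of the 4 sites was found in 4797 isolated peaks, 54.3% (53.3 to 55.3), and none in 4038. The share of GC-matched windows with any of the 4 is not given here, so this count has no background beside it.

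At start sites the picture changed. Among the 1688 isolated peaks there, the AP-1 site was in 5.69%, 2.38 times (1.95 to 2.89) the share of GC-matched windows at start sites, and the MyoD-type E-box in 11.6%, 0.925 times (0.811 to 1.06). RUNX and TEAD sites had ratios of 1.11 (0.98 to 1.27) and 1.08 (0.932 to 1.25). In shared peaks at start sites these 3 ratios were 1.37 (1.19 to 1.57), 1.6 (1.41 to 1.82) and 1.39 (1.18 to 1.62), each above 1 with its interval, and in isolated 36-cycle peaks at start sites the E-box ratio was 0.951 (0.752 to 1.2). Among promoter elements, several were above their background in isolated start-site peaks, with windows matched in GC content but not in CpG count. The GC box GGGCGG was in 29.7%, a ratio of 1.16 (1.08 to 1.25), the ETS site CCGGAAG in 5.51%, a ratio of 1.38 (1.13 to 1.68), and the cAMP response element TGACGTCA in 1.54%, a ratio of 2.72 (1.84 to 4.01). The CCAAT box was at the level of its background, 0.978 (0.813 to 1.18), as was the NRF1 core GCATGCGC, 0.902 (0.543 to 1.5). The Myc-type E-box CACGTG was at 1.35 (1.1 to 1.66). The GC box, the ETS site, the cAMP response element and the Myc-type E-box all contain a CpG, as does the NRF1 core. The CCAAT box does not. No ratio matched in CpG count is given for these elements, and the part of CpG content in their ratios was not tested. In shared start-site peaks the GC box was at 1.11 (0.986 to 1.24) and the ETS site at 1.18 (0.866 to 1.61). The cAMP response element was at 2.74 (1.59 to 4.72) there. Isolated peaks away from start sites had ratios of 2.67 (1.84 to 3.87) for the cAMP response element and 1.43 (1.3 to 1.58) for the GC box. The rise of these 2 elements was therefore not limited to start sites.

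**Figure D4:**
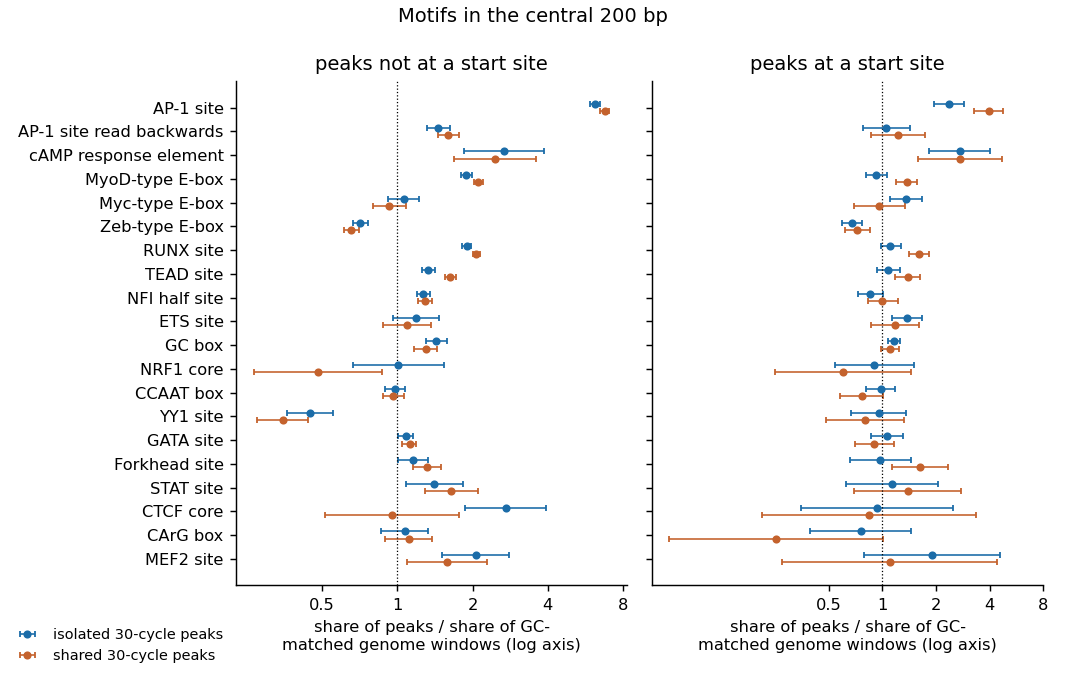
Ratio of the share of peaks with a motif in the central 200 bp to the share of GC-matched genome windows (log axis, points with 95% intervals, dotted line at 1), for isolated and shared 30-cycle peaks away from start sites (left) and at start sites (right). The AP-1 site was at 6.2 in isolated peaks away from start sites and at 2.38 at start sites, and the MyoD-type E-box fell from 1.89 to 0.925.

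Rare motifs gave wider intervals. The CTCF core, the site of the insulator protein CTCF, was in 31 isolated peaks, 0.351%, against 0.158% of GC-matched windows, a ratio of 2.21 (1.56 to 3.15), and in 12 shared peaks, 0.147%. The difference in share was 0.203 points (0.0522 to 0.363). Among peaks and windows without a repeat base the CTCF ratio was 1.39 (0.768 to 2.51), from 11 peaks. The MEF2 site was in 45 isolated peaks, a ratio of 2.06 (1.54 to 2.76), and the CArG box, bound by Srf, in 90, a ratio of 1.03 (0.842 to 1.27). The cAMP response element TGACGTCA was in 54 isolated peaks, 0.611%, a ratio of 3.14 (2.4 to 4.1) to windows not matched in CpG count. In shared peaks its ratio was 2.69 (1.97 to 3.66). The CCAAT box GCCAAT was at the level of its background, 1.01 (0.928 to 1.1). The sites listed next had ratios between 1.08 and 1.39. These were 1.17 (1.04 to 1.31) for the Myc-type E-box CACGTG, 1.21 (1.14 to 1.28) for the NFI site TTGGCA, 1.08 (1.01 to 1.15) for the GATA site AGATAA, 1.14 (1 to 1.29) for the Forkhead site GTAAACA and 1.39 (1.09 to 1.77) for the STAT site TTCCNGGAA. The Zeb-type E-box CAGGTG was rarer than in the background, 11.3% against 16.5%, a ratio of 0.686 (0.647 to 0.727). The YY1 site AAGATGGC was also rarer, at 0.444 (0.371 to 0.532), but without repeat bases its ratio was 1.35 (1.04 to 1.74), so that its direction turned.

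The sites gathered at the peak centre. AP-1 sites numbered 5.2 per 100 isolated peaks in 50 bp at the centre and 1.02 beyond 500 bp from it, a 5.09-fold rise, against 5.48-fold in shared peaks. The rise was 2.25-fold for the MyoD-type E-box, 2.21-fold for the RUNX site and 1.5-fold for the TEAD site, compared with 2.53, 2.29 and 1.92 in shared peaks. The AP-1 site read backwards rose 1.28-fold and the Zeb-type E-box did not rise, at 0.925.

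**Figure D5:**
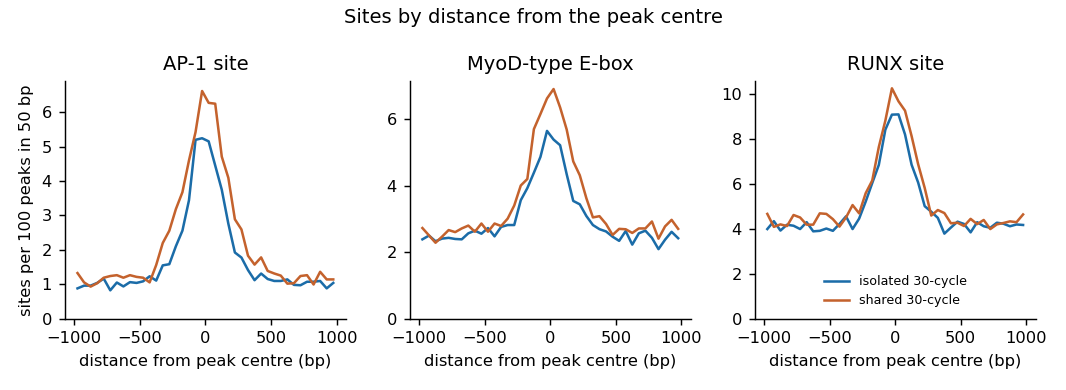
Sites per 100 peaks in bins of 50 bp by distance from the peak centre in bp, for the AP-1 site, the MyoD-type E-box and the RUNX site in isolated (blue) and shared (orange) 30-cycle peaks. All 3 sites peak at the centre of isolated peaks, at 5.2, 5.52 and 9.09 sites per 100 peaks, lower than in shared peaks.

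Pairs of sites in 1 peak occurred slightly more often than the product of the single shares over all isolated peaks. For the first 2 pairs below that product lay under the interval. The product pools peaks at and away from start sites, where the single shares differ. AP-1 sites were in 5.69% and 20.4% of these, MyoD-type E-boxes in 11.6% and 18.6%, and RUNX sites in 12.3% and 27.2%. Products within each group are not given here, so pairing beyond this mix of positions was not tested. An AP-1 site and a MyoD-type E-box were both in the central 200 bp of 306 isolated peaks, 3.46% (3.1 to 3.87), against 3.03% as the product of the single shares. AP-1 and RUNX sites were both in 4.81% (4.38 to 5.28) against 4.29%. For the E-box with the RUNX site the product was inside the interval, with values of 4.45% (4.04 to 4.9) and 4.2%, and for AP-1 with TEAD 2.68% (2.37 to 3.04) and 2.53%. Over the whole peak, 26.4% of isolated peaks held at least 1 AP-1 site, 4.53% at least 2 and 39 peaks at least 3.

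Each of the 2080 hexamers, pooled with its reverse complement, was set against GC-matched windows and ordered by the ratio. At or above 1.5 were 86 of them, 4.13%, and 78 of these 86 contained a CpG, as do 604 of all 2080. For hexamers too the windows were matched in GC content but not in CpG count. The highest ratios were those of the 2 hexamers contained in the AP-1 site, GACTCA at 2.4 (2.31 to 2.49) and GAGTCA at 2.31 (2.22 to 2.39), which were present in 23.2% and 24.6% of isolated peaks. The next 8 all contained CpG, namely AACGCG at 2.15, CGCGAA at 2.11, ACCGCA at 2.07, ACGCGA at 1.98, AACCGC at 1.97, AAACCG just below it, CGCGTC at 1.85 and CCGCGA at 1.84, and were present in 1.18% to 4.82% of peaks. Away from start sites CGCGAA was at 1.07 and ACGCGA at 1.25, against 1.72 and 1.78 at start sites. ACCGCA and AACCGC overlap the longer RUNX consensus. CAGCTG was at rank 38 with 1.65, whereas in shared peaks it was at rank 7 with 2. The lowest were CAGGTA at 0.503 (0.459 to 0.553), CCTATA at 0.549, ATCGAT at 0.555, CTATAG at 0.585 and AGGTAG at 0.591. Of the top 20 hexamers of isolated peaks, 7 were also among the top 20 of shared peaks.

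Hexamers with CpG were more frequent at promoters. AACGCG was in 4.98% of isolated peaks at start sites and 0.658% of the others, and CGCGAA in 5.21% and 0.224%. Among isolated peaks away from start sites the leading hexamers were GACTCA at 2.62, GAGTCA at 2.51 and ACCGCA at 2.13, followed by CGCGGC at 2.09 and CGCGAG at 1.98. AGTCAT and AGTCAC, which overlap the AP-1 site and a base beside it, were at 1.93 and 1.81, the RUNX site ACCACA at 1.9 and CAGCTG at 1.89. At start sites, compared with GC-matched start-site windows, CGGTTA at 2.07, AACGAA at 2.01 and CGGAAA at 1.93 led, and each was present in 3.5% to 9.72% of the peaks.

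Of the genes followed by name in the study, Myod1 came first. The isolated peak nearest to it, at this master regulator of the myogenic lineage on chromosome 7, was 333 bp wide and ended 23.1 kb upstream of the start site, 11.2 kb from the nearest 36-cycle peak. It lay between genes and held 1 AP-1 site, 1 MyoD-type E-box and 1 RUNX site. The study described WFS1 peaks upstream of Myod1, the nearest of them largely over the core enhancer. There its ChIP-qPCR also found WFS1 enrichment, which was reduced in WFS1 knockout cells. The position of that peak was not compared here with the isolated peak. At Myf5 and Myf6, which are neighbours on chromosome 10 and encode the other early myogenic factors, 1 isolated peak of 370 bp stood 0.566 kb upstream of Myf5, which is 7.67 kb downstream of the Myf6 start. It held 1 MyoD-type E-box and no AP-1, RUNX or TEAD site. A second one, 97.3 kb upstream of Myf5, was in an intron of another gene and held 1 AP-1 site. At Plxna2, a semaphorin receptor gene on chromosome 1, there were 3 isolated peaks within 100 kb, 30 kb upstream and 40.4 and 42.3 kb downstream of the start site. The last one, in an intron, held an AP-1 site, an E-box and a RUNX site, and the first held none of these.

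The printed peaks with the most AP-1 sites differed in makeup. The peak nearest to Rorb, on chromosome 19, had 5 AP-1 sites in 805 bp and was 305 kb from any 36-cycle peak. The peak nearest to Itgax, on chromosome 7, had 5 in 364 bp. In its printed stretch 70.3% of the bases equalled the base 98 positions further on, as in a tandem repeat, against 32.3% to 35% at the best shift in the other 6, although none of its bases is annotated as a repeat. The peaks nearest to Nanos3, Rftn1 and Sox5 had 4 AP-1 sites each, and in the one nearest to Sox5 74.5% of the bases were annotated as repeats. The peak nearest to Nanos3 was 1.17 kb from a 36-cycle peak, close to the limit of the rule.

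The 5 widest isolated peaks measured 1642, 1346, 1330, 1315 and 1313 bp. The widest was centred 0.238 kb downstream of the start site of Lnpep, an aminopeptidase gene on chromosome 17, had a GC content of 66.1% and lay 166 kb from the nearest 36-cycle peak. The others had Myo1e, 1110038F14Rik, Myc and Lrrc8d as the nearest protein-coding genes, at 43.2, 0.533, 349 and 79.3 kb. The one on the side of Myc, on chromosome 15, was 4.6 kb from a 36-cycle peak. Of these 5, only the peak nearest to Lrrc8d held an AP-1 site, while each held at least 1 CAGCTG. No background for regions of this width is given here, so these counts describe the 5 peaks only.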

How the data were processed

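WFS1 ChIP-seq peaks of wildtype C2C12 myoblasts were compared between 30 and 36 sonication cycles, with 1 library each. According to the study's methods, the authors aligned the libraries to GRCm38 by NextGenMap, filtered out low mapping quality using samtools and ran MACS2 on each library separately. The deposited lists hold peak positions only, with no score, height or read count, so depth is unknown, and the control used in calling is not given in the sources used here. A region just under the calling threshold is missing from a list.

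The members and all gene lists, families and motifs were chosen with earlier results of these data known. A peak was isolated if no 36-cycle peak lay within 1 kb of either edge. Positions were taken from GENCODE M21 and sequence from GRCm38, in which soft-masked bases counted as repeats. Families were defined by symbol pattern, and all 582 symbols of the lists matched. Motifs and hexamers were searched in the central 200 bp and compared with all 200 bp genome windows without N, weighted to the GC content of the peaks in bins of 5%. Shares have Wilson intervals, differences Newcombe intervals and ratios log-scale intervals at the 95% level, and no p-value was computed. Scripts ran in Python 3.11.15 with numpy 2.4.6, pandas 2.3.3, scipy 1.17.1 and numba 0.67.0, and were tested on simulated data, with distances checked against bedtools 2.31.1.

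Genes were named by rule, namely the 10 with the most isolated peaks nearest to their start site, up to 4 per list with the closest peak, and Myod1, Myf5, Myf6 and Plxna2. Peaks were named if among the 5 widest or the 5 with the most AP-1 sites, and hexamers if among the 10 highest or 5 lowest ratios, besides CAGCTG and the leading hexamers away from and at start sites. Alternatives were other distances to 36-cycle peaks, start sites and genes, other backgrounds and windows, and wider peaks only. Inputs and libraries of knockout cells were not used here.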

Additional observations from a re-analysis of the deposited data

Results flagged for a closer look

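The 30-cycle list held 5 peaks on the mitochondrial genome, which the rule for nuclear peaks leaves out and no comparison above uses, and the 36-cycle list held 1. They stand out as signal in data outside the main measurement. No control library was used here, and the mitochondrial peaks were not analysed further.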

How the results depend on the processing

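Of 60 alternatives, 25 stayed within the counting interval or, for counts, within 1.5 times the value reported, 34 moved and 1 reversed. Requiring 20 kb free of 36-cycle peaks left 5614 isolated peaks, with 21.7% at start sites and 27.1% of genes with one nearby, and keeping those at least as wide as the median 30-cycle peak left 2763, with 20.3% at start sites, 33.5% between genes and an X density ratio of 0.147. The start-site share was 13.7% within 500 bp, 24.4% within 2 kb, 15.7% for protein-coding genes only and 23.7% for every annotated transcript start. With protein-coding genes only, 43.4% lay between genes, and the start-site difference from shared peaks was 7.99 points. For start sites of all genes that difference was 5.02 points at equal widths. The AP-1 ratio was 4.72 against windows 2 kb to either side and 6.2 away from start sites. The CAGCTG ratio was 2.41 against unweighted windows, 1.47 without repeat bases, 1.93 against windows 2 kb to either side and 1.89 away from start sites. The AP-1 difference from shared peaks was -2.07 points away from start sites and -14.6 points over the whole peak, where shared peaks are wider. Hexamers at or above 1.5 numbered 549 with unweighted windows, 48 without repeat bases and 48 away from start sites. Median gene density was 2 within 100 kb and 17 within 1 Mb, genes with a peak nearby were 14.5% within 10 kb and 55% within 100 kb, and mostly repeat peaks 15% by the central 200 bp and 76.6% by any repeat base, where shared peaks reached 86%. The YY1 ratio of 0.444 reversed to 1.35 without repeat bases, a setting added for 18 motifs after seeing the data, and the cause was not tested. A stricter peak threshold was not run because the lists hold no score. No paired analysis was possible because no result comes from a test and neither condition was replicated.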
